A study of Mus musculus with 6 samples.

Results

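Heart genes were followed in RNA from mouse embryo heads at embryonic day 8.5 as a measure of how much heart RNA each sample held, and they were compared between genotypes. The 10 genes encode 6 proteins of the sarcomere (Tnnt2, Myl7, Myl4, Actc1, Myh6 and Myh7) and 4 transcription factors of the early heart (Nkx2-5, Tbx5, Gata4 and Hand1). They were taken by symbol, and all 10 were found among the 54532 genes of the count tables. Each sample was a pool of 3 heads collected before any change of form could be seen. There were 3 pools from wild-type embryos and 3 from embryos with Sf3b4, a subunit gene of the SF3B splicing complex, deleted in neural crest cells. The titles call the mutants homozygous null, while the genotype entries name a neural crest mutant. The sources used here do not give the Cre driver, the strain, the alleles of the wild-type embryos or the litters, so the tests measure only the spread between these pools.

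At this stage the heart tube lies directly beneath the head, against the pharyngeal arches and the foregut, and it has started to contract. Its muscle cells make atrial and ventricular forms of myosin, actin and troponin under the control of NKX2-5, GATA4, TBX5 and MEF2C. Heart muscle comes from mesoderm, whereas neural crest cells enter the outflow tract later. The level of heart genes in a head sample therefore depends on how much heart is included in the dissection as well as on expression. In bulk RNA a smaller number of heart cells and less RNA per heart cell cannot be told apart.

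The pools held 6930827 to 12251910 counts, and 14008 genes were tested. In the wild-type pools 1 to 3, Sf3b4 was read at 77.7, 72.8 and 63.9 CPM (counts per 1000000 after TMM scaling, the unit of every CPM value here), and in the mutant pools 1 to 3 at 56.1, 64.2 and 60.9. The ranges overlapped, and the log2 fold change of -0.24 (SE 0.0918) did not pass the test across all genes (edgeR quasi-likelihood test, adjusted p = 0.128). Counts over a whole gene cannot tell which exons a deletion takes out. On 4 Y-linked genes (Kdm5d, Eif2s3y, Uty and Ddx3y) wild-type pool 1 and mutant pool 3 had 1 count each in sum, and the remaining pools had 344 to 664. Head markers were present: Otx2, a factor of the forebrain and midbrain, was read at 118 to 133 CPM and Sox2, a neural progenitor factor, at 86.5 to 118 CPM. Wild-type pool 3 stood apart in the heart genes, as the next values show, and the values without it are given beside the level, the spread and the genotype comparison.

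The sequences before 3 of the sarcomere genes are shown because their promoters carried the motif matches found among the members whose levels differed most between wild-type pools. They are the 250 bases before a RefSeq transcription start (GRCm38.p6), written 5′ to 3′ on the gene's strand, with matches in capitals. Myl7 is on the minus strand at chr11:5898783-5899032, Actc1 on the minus strand at chr2:114052876-114053125, and Tnnt2 on the plus strand at chr1:135836084-135836333, the window of the upstream of its 2 starts.
Myl7: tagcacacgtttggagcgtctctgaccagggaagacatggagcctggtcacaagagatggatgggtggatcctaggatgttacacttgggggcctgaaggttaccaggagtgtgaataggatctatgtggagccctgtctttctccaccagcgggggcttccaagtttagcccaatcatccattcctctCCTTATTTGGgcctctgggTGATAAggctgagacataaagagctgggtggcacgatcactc
Actc1: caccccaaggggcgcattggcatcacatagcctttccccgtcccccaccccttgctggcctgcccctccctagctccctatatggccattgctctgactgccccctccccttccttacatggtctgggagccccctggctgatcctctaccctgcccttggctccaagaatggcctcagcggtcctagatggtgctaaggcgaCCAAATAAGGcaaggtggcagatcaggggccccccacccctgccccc
Tnnt2: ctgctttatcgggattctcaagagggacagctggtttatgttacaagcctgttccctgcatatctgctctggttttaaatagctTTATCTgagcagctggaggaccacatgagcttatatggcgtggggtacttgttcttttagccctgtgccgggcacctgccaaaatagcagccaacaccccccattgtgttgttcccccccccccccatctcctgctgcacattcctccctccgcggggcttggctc

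In Myl7 and Actc1 the match was to the CArG box, the sequence bound by serum response factor, which controls many muscle genes. It began 61 bases before the start in Myl7 and 47 bases before it in Actc1. Myl7 also held a GATA motif (TGATAA) beginning 42 bases before the start, and Tnnt2 held one on the opposite strand beginning 166 bases before it. RefSeq windows were found for 7 of the 10 genes, all but Tbx5, Gata4 and Hand1. Of these 7 genes, 2 had a CArG box, against 1.47% of 32817 promoter windows of the same length on both strands. The GATA motif (AGATAA or TGATAA, both strands) was in 2 of 7, against 16.6% of the windows. An NKX2 motif (TNAAGTG, both strands) was in Myh7 alone, against 10.1% of the windows. The TBX motif (AGGTGT, both strands), the TATA box (TATAAA, gene strand) and the MEF2 motif (both strands) were in 0 of 7, against 11.8%, 7.6% and 2.92% of the windows. The matches in the printed windows do not overlap each other. A match describes the sequence only. The Actc1 window lies inside the longer GENCODE model of the gene, while the Myl7 and Tnnt2 windows lie before theirs.

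Heart RNA was a small and uneven part of the head pools. All 10 genes together took 1112, 586 and 407 counts in the wild-type pools 1, 2 and 3, which is 104 (Wilson 95% interval 98.4 to 111), 84.6 (78.0 to 91.7) and 34.5 (31.3 to 38.0) per 1000000 counts. The mutant pools 1, 2 and 3 held 735, 484 and 385 counts, or 60.0 (55.8 to 64.5), 49.8 (45.6 to 54.5) and 51.9 (47.0 to 57.3) per 1000000. Intervals cover counting error only, because reads without molecular identifiers are not independent molecules. Wild-type pools 1 and 2 were therefore the highest of the 6, wild-type pool 3 was the lowest, and the 3 mutant pools lay between them. The wild-type mean was 74.5 ± 36.0 per 1000000 and the mutant mean 53.9 ± 5.38 (SD, n = 3 each). The highest wild-type pool exceeded the lowest 3.02-fold, while the mutant pools spanned 1.20-fold. Without wild-type pool 3 the wild-type mean was 94.4 per 1000000, and wild-type pools 1 and 2 differed 1.23-fold.

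**Figure D1:**
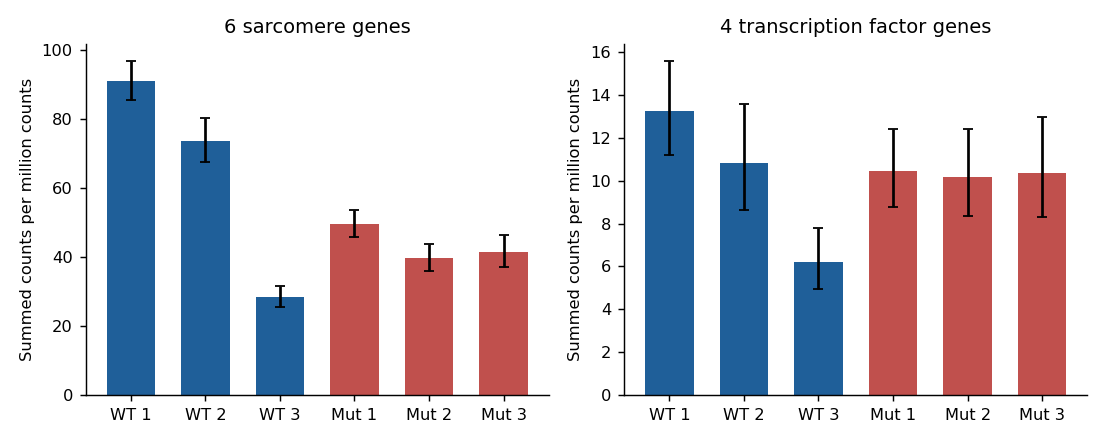
Summed counts of the 6 sarcomere genes (left) and the 4 transcription factor genes (right) per 1000000 counts of each pool, with Wilson 95% intervals; blue bars are wild-type pools and red bars mutant pools. Sarcomere genes ran from 28.3 in wild-type pool 3 to 91.1 in wild-type pool 1, with the mutant pools at 39.6 to 49.5.

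The sarcomere genes were more uneven than the transcription factors. The 6 sarcomere genes summed to 91.1, 73.7 and 28.3 per 1000000 in the wild-type pools and to 49.5, 39.6 and 41.5 in the mutant pools. The 4 factors summed to 13.2 (11.2 to 15.6), 10.8 (8.63 to 13.6) and 6.19 (4.92 to 7.78) in the wild-type pools and to 10.5, 10.2 and 10.4 in the mutant pools. Wild-type pool 1 thus exceeded wild-type pool 3 by 3.22-fold for the sarcomere genes and 2.14-fold for the factors. On the scale of TPM (transcripts per 1000000, from counts per exon base), the sarcomere sum was 5.99, 5.21 and 2.80 times the factor sum in the wild-type pools and 3.96, 3.00 and 3.91 times it in the mutant pools. The ratio was thus highest in wild-type pools 1 and 2 and lowest in wild-type pool 3. Sarcomere genes supplied most counts of the 10 genes (971 of 1112 in wild-type pool 1, 334 of 407 in wild-type pool 3). That this order resembles that of the 10-gene sum is therefore in part built in. NKX2-5 and GATA4 are also known from neighbouring tissues such as the pharyngeal endoderm.

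Per base of exon, the order of the genes was nearly the same in every pool. Myl7, the regulatory light chain of atrial myosin that the whole early heart tube also expresses, was the highest of the 10 in all 6 pools. It reached 75.5, 43.5 and 11.04 TPM in the wild-type pools and 32.1, 24.1 and 38.4 in the mutant pools, which was 29.9% to 49.8% of the summed TPM of the 10 genes. Actc1, the cardiac form of actin, and Nkx2-5 shared the next places. Actc1 had a mean of 20.2 ± 12.2 TPM in wild-type and 14.8 ± 2.56 in mutant pools, and Nkx2-5 of 12.7 ± 5.38 and 12.7 ± 0.487. These SDs describe the spread across pools, not the difference between the genes within a pool. Within pools, Actc1 was above Nkx2-5 in wild-type pools 1 and 2 and in mutant pools 1 and 3. It was below Nkx2-5 in wild-type pool 3 and mutant pool 2. The difference between these neighbours was not tested. Myh7 took the fourth place in all pools, at 10.9 ± 4.52 and 6.66 ± 1.38 TPM, and Myl4 the fifth, at 4.33 ± 2.07 and 3.07 ± 0.622. Below them Myh6, Hand1, Tnnt2 and Gata4 changed places from pool to pool, between means of 1.38 and 2.54 TPM in either genotype. Tbx5 was the lowest in all 6 pools, at 0 to 0.322 TPM. The places of different genes depend on the length used. Union exon length, all exon bases of a gene together, was 590 for Myl7, 4637 for Myl4, 7752 for Tnnt2 and 8616 for Myh7. With the longest transcript instead, the mean share of the summed TPM was 35.8% for Myl7 (40.46% by union length). It was 12.84% for Myh7 (10.55%) and 19.06% for Actc1 (19.65%). Shares of the other members by that length are not given.

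Among the thin filament and light chain genes, Myl7 showed the largest spread of the tested members. Myl7 (ENSMUSG00000020469, mm10 chromosome 11, 5896637 to 5898782, minus strand) reached 13.7, 7.63 and 2.07 CPM in wild-type pools 1 to 3 and 6.07, 4.63 and 7.31 in the mutant pools. The wild-type range enclosed all mutant pools. Means were 7.80 ± 5.83 and 6.01 ± 1.34 CPM (SD, n = 3 each), with a log2 fold change of -0.38 (SE 0.718, adjusted p = 0.803 by edgeR). Actc1 (ENSMUSG00000068614, chromosome 2, 114047282 to 114053548, minus strand) was read at 13.3, 13.4 and 3.19 CPM in wild-type pools 1 to 3 and at 8.78, 6.31 and 8.13 in the mutant pools. Wild-type pools 1 and 2 were again above and wild-type pool 3 below every mutant pool. Its log2 fold change was -0.32 (SE 0.583, adjusted p = 0.798 by edgeR).

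Tnnt2 (ENSMUSG00000026414, chromosome 1, 135836354 to 135852260, plus strand) encodes cardiac troponin T, which ties the troponin complex to tropomyosin. It was read at 8.80, 6.36 and 2.07 CPM in wild-type pools 1 to 3 and at 4.19, 1.58 and 4.60 in the mutant pools. Here mutant pool 2, not wild-type pool 3, was the lowest. The log2 fold change was -0.72 (SE 0.640, adjusted p = 0.567 by edgeR). Myl4, the essential light chain of atrial and embryonic myosin (ENSMUSG00000061086, on the plus strand of chromosome 11, 104550663 to 104595753), reached 9.08, 6.07 and 3.27 CPM in the wild-type pools. In the mutant pools it was at 5.58, 4.42 and 3.79 CPM, within that range. Its log2 fold change was -0.39 (SE 0.329, adjusted p = 0.523 by edgeR).

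The myosin heavy chain genes lie side by side on chromosome 14 and are close copies. Of the 50-base windows in Myh6 transcripts 20.2% also occurred in Myh7, so reads can be shared between them. Myh7 (ENSMUSG00000053093, 54970684 to 54994626, minus strand) encodes the slow chain that dominates in the embryonic ventricle. It was read at 37.5, 33.1 and 15.8 CPM in wild-type pools 1 to 3 and at 21.8, 19.5 and 14.4 in the mutant pools. The ranges overlapped only because of wild-type pool 3. The log2 fold change was -0.60 (SE 0.387, adjusted p = 0.430 by edgeR). Its exons overlap opposite-strand genes, among them Mhrt over 5.6% of their length, but Mhrt itself held 2 counts in all pools. Myh6 (ENSMUSG00000040752, 54941921 to 54966927, minus strand), the fast chain of atrial and adult mouse muscle, was read at 7.60, 5.65 and 2.41 CPM in the wild-type pools. The mutant pools gave 3.45, 4.10 and 3.52 CPM, and the log2 fold change was -0.48 (SE 0.352, adjusted p = 0.448 by edgeR). In TPM, Myh7 exceeded Myh6 by 3.86, 4.57 and 5.10 times in the wild-type pools and by 4.93, 3.70 and 3.18 times in the mutant pools.

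**Figure D2:**
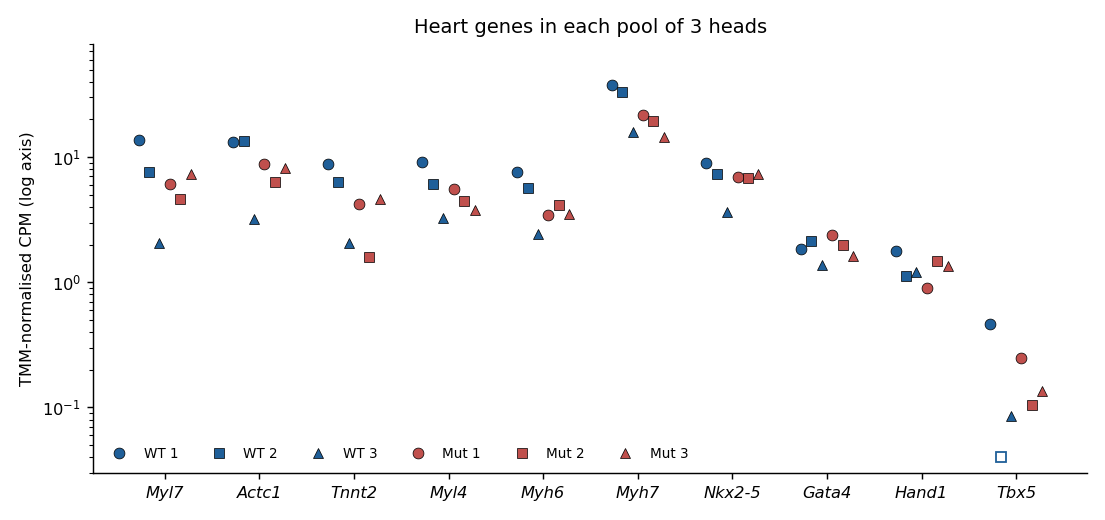
TMM-normalised CPM of the 10 heart genes (horizontal axis) on a log axis; blue symbols are wild-type and red symbols mutant pools, and circles, squares and triangles are pools 1, 2 and 3. The open square stands for the wild-type pool with 0 counts of Tbx5; in the 6 sarcomere genes wild-type pool 3 (blue triangle) lay below wild-type pools 1 and 2.

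Of the tested transcription factors, Nkx2-5 had the widest range among the wild-type pools. Nkx2-5 (ENSMUSG00000015579, chromosome 17, 26838664 to 26845009, minus strand), a homeodomain factor of heart progenitors and also of pharyngeal tissue, was read at 8.99, 7.35 and 3.62 CPM there. The mutant pools were nearly equal, at 6.98, 6.84 and 7.31 CPM, and lay inside the wild-type range. Its means were 6.65 ± 2.75 and 7.04 ± 0.243 CPM (SD, n = 3 each), with a log2 fold change of 0.10 (SE 0.268, adjusted p = 0.864 by edgeR). Gata4 (ENSMUSG00000021944, chromosome 14, 63198922 to 63271692, minus strand), a zinc finger factor of heart and endoderm, was read at 1.85, 2.12 and 1.38 CPM in the wild-type pools. In the mutant pools it was at 2.38, 2.00 and 1.63 CPM, a log2 fold change of 0.22 (SE 0.307, adjusted p = 0.705 by edgeR).

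Hand1 (ENSMUSG00000037335, chromosome 11, 57828705 to 57832818, minus strand), a basic helix-loop-helix factor of the early left ventricle and of extraembryonic tissue, had 76 counts in all pools. It was read at 1.76, 1.13 and 1.21 CPM in wild-type pools 1 to 3 and at 0.903, 1.47 and 1.35 in the mutant pools. The log2 fold change was -0.19 (SE 0.369, adjusted p = 0.802 by edgeR). Gata4 and Hand1 spread by 1.54-fold and 1.56-fold among the wild-type pools, less than any of the other tested members. Tbx5 (ENSMUSG00000018263, chromosome 5, 119832668 to 119885219, plus strand), a T-box factor of the posterior heart, the forelimb and the dorsal eye, was too low for the test. It had 5, 0 and 1 counts in the wild-type pools and 3, 1 and 1 in the mutant pools. The 0 in wild-type pool 2 allows up to 0.433 per 1000000 counts. The ratio of summed counts, mutant over wild type, was 0.833 with an exact 95% counting interval of 0.201 to 3.28.

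Between the genotypes, none of the 9 tested heart genes passed the test: 0 rose and 0 fell by the edgeR quasi-likelihood test, 0 had an unadjusted p under 0.05, and DESeq2 and limma-voom called 0 as well. Over all tested genes edgeR called 6.52%, with 2.65% higher and 3.88% lower, and 23.2% had an unadjusted p under 0.05; DESeq2 called 5.61%. The groups overlapped in all 9, while they did not overlap in 28.3% of all tested genes. Fold changes were negative for 7 members and positive for Nkx2-5 and Gata4, with a median of -0.38 beside 0.00 over all tested genes. Under limma-voom 5 were negative and 4 positive, with Actc1 and Myl7 just above 0. The 95% intervals of the log2 fold change were wide, from -2.29 to 1.52 for Myl7, from -1.61 to 0.41 for Myh7 and from -0.49 to 0.68 for Nkx2-5. For all 6 sarcomere genes the interval reached below -1, so a level 2-fold lower in the mutant pools lay inside it.

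Which members passed, and for some of them the direction, depended on single wild-type pools. Without wild-type pool 3, 4 of the 9 members fell, beside 12.7% of all tested genes called. These were Myh7 (-0.91, edgeR adjusted p = 0.00179), Actc1 (-0.78, adjusted p = 0.0112), Myh6 (-0.86, adjusted p = 0.0216) and Myl7 (-0.88, adjusted p = 0.0405). In that comparison 8 members were negative, with a median of -0.78, and Tnnt2 had a fold change of -1.16 that did not pass (edgeR adjusted p = 0.0509). Wild-type pool 3 was the lowest wild-type pool for 8 of the 9 members, so leaving it out favours a lower mutant level in them. Leaving out wild-type pool 1, the highest wild-type pool for 7 of the 9, favours the reverse. Both comparisons are therefore a description. Without wild-type pool 1, by contrast, 6 of the 9 were positive, the median was 0.05 and none passed, beside 6.97% of all tested genes called. Of the sarcomere genes Myl7 (0.42), Myl4 (0.07) and Actc1 (0.02) were then above 0, while Myh7 (-0.32), Tnnt2 (-0.18) and Myh6 (-0.04) stayed below it, as these 3 did in all 17 settings computed, the one with all pools included. Nkx2-5 had a log2 fold change of 0.43. Without any 1 of the other 4 pools 0 members passed, beside 2.55% of tested genes called without wild-type pool 2, and 1.61%, 2.7% and 3.06% without mutant pools 1, 2 and 3.

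**Figure D3:**
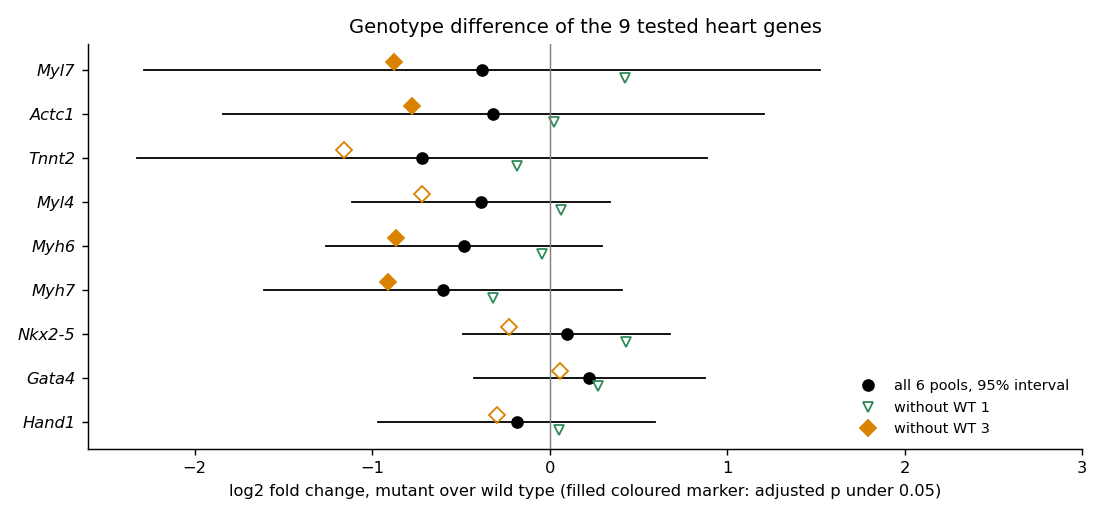
Log2 fold change, mutant over wild type, of the 9 tested heart genes; black points and lines give all 6 pools with the 95% interval, green triangles the comparison without wild-type pool 1 and orange diamonds that without wild-type pool 3, filled where the adjusted p was under 0.05. All black intervals cross 0, and the filled diamonds are Myl7 (-0.88), Actc1 (-0.78), Myh6 (-0.86) and Myh7 (-0.91).

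The pools were also compared within the split by Y-linked reads. Between the pools without such reads, wild-type pool 1 and mutant pool 3, all 10 members were lower in the mutant pool. Myh7, for example, was at 37.5 against 14.4 CPM. Wild-type pool 1 was the highest of the 6 pools for 8 of the 10 members, so lower values in a mutant pool beside it are in part built in. With 1 pool per genotype there is no test. Among the 4 pools with Y-linked reads 4 of 10 members were lower in the mutant mean, and none of the 9 tested passed by edgeR (3.75% of all tested genes did), with a median log2 fold change of -0.01. The labels name no batch.

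With all 3 wild-type pools, the spread among them was wider for the heart genes than for most genes, and the 2-fold differences rested on wild-type pool 3. The highest wild-type pool exceeded the lowest by a median of 2.77-fold over the 9 tested members, beside 1.23-fold over all tested genes and 1.29-fold over the 9293 tested genes with a mean CPM from 1 to 50. At least 2-fold was reached by 7 members, all but Gata4 and Hand1, beside 9.75% of the genes in that range of CPM. Single values were 6.64-fold for Myl7, 4.26-fold for Tnnt2, 4.21-fold for Actc1, 3.15-fold for Myh6, 2.77-fold for Myl4, 2.49-fold for Nkx2-5 and 2.38-fold for Myh7. Wild-type pool 3 was the lowest wild-type pool for 8 of the 9 members, beside 32.6% of all tested genes. Among the mutant pools the median was 1.47-fold, beside 1.16-fold over all tested genes and 1.22-fold over those with a CPM from 1 to 50. Of the members only Tnnt2 (2.92-fold) reached 2-fold there, beside 5.16% and 6.5% of these genes. In a comparison added after the data were seen, wild-type pools 1 and 2 alone gave a median of 1.34-fold over the 9 members. All tested genes gave 1.13-fold there, and those with a CPM from 1 to 50 gave 1.17-fold. Of the members 0 reached 2-fold, beside 3.14% of all tested genes. Without wild-type pool 1, 6 members reached it, and without wild-type pool 2, 7 did.

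**Figure D4:**
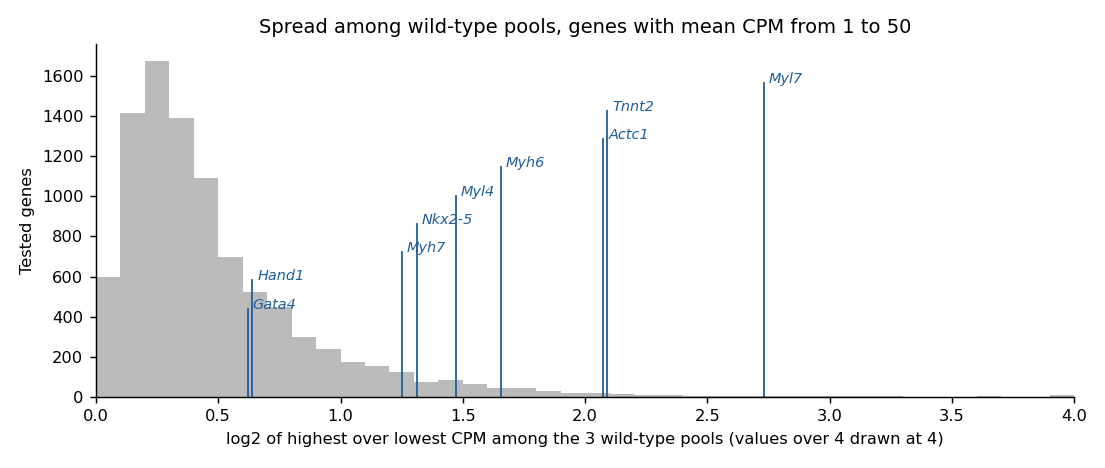
Distribution over tested genes with a mean CPM from 1 to 50 of the log2 ratio of the highest to the lowest wild-type pool, with the 9 tested heart genes marked by blue lines whose heights carry no value. Gata4 and Hand1 lie within the bulk of the genes, and Myl7, at 6.64-fold, lies farthest to the right of the 9.

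Other genes of heart muscle gave a broader view of the same pools. Of 43 listed cardiomyocyte genes 28 were tested, of which 3 fell, 0 rose and 25 did not pass, with 3.88% of all tested genes lower. Their median log2 fold change was -0.16. Mef2c, a MADS-box factor that is also expressed in neural crest and vessels, was read at 38.5, 64.3 and 45.1 CPM in wild-type pools 1 to 3 and at 26.8, 30.1 and 29.8 in the mutant pools, with a log2 fold change of -0.76 (SE 0.167, adjusted p = 0.0272 by edgeR). Tbx3, a T-box factor of the conduction system and of several head tissues, fell by 0.61 (SE 0.159, adjusted p = 0.0316 by edgeR). Myom1, which encodes a protein of the sarcomere's M-band, went from 4.91, 3.67 and 2.15 to 1.48, 1.58 and 1.49 CPM, a log2 fold change of -1.22 (SE 0.325, adjusted p = 0.0351 by edgeR). In these 3 genes, which were picked by the test, every mutant pool was below every wild-type pool, as in 14.4% of all tested genes. The same held for Actn2, Nebl and Srl on this list, which did not pass, and the reverse for Cryab. Actn2 and Nebl are named here after their values were seen. The call of Mef2c was lost without any 1 mutant pool (edgeR adjusted p 0.0864 to 0.124), and those of Tbx3 and Myom1 without any 1 pool other than wild-type pool 3 (0.0744 to 0.179). Without wild-type pool 3 the count was 7 lower of 30 tested, beside 12.7% of all tested genes called there in either direction. The list's median was -0.40 without wild-type pool 3 and 0.07 without wild-type pool 1.

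The cardiomyocyte genes with the highest mean TPM differed in how even they were. Atp2a2, the calcium pump of the sarcoplasmic reticulum, and Tpm1, a tropomyosin gene, were read at 379 to 438 and 251 to 269 CPM in all pools, with log2 fold changes of -0.08 and 0.03. Their mean TPM was 208 and 126, against 37.4 for Myl7, the highest of the 10 members. How much of their RNA came from heart cells was not tested, so their evenness is no reading of heart RNA. Srl, which encodes sarcalumenin, was at 49.95 to 54.95 CPM in the wild-type and 43.1 to 46.5 in the mutant pools, a log2 fold change of -0.23 (edgeR adjusted p = 0.128). Tnnc1, the calcium-binding troponin, was at 3.61, 2.68 and 0.947 CPM in wild-type pools 1 to 3 and at 2.96, 1.05 and 1.49 in the mutant pools. Des, the muscle intermediate filament gene, was also lowest in wild-type pool 3 (9.17, 7.91 and 3.79 against 10.2, 9.68 and 8.26 CPM). Cryab, a small heat shock protein gene, was at 1.46 to 1.95 and 2.71 to 3.16 CPM (log2 fold change 0.82, edgeR adjusted p = 0.0868), and Hand2 had a log2 fold change of 0.38 (adjusted p = 0.332). Over the 28 tested genes, wild-type pool 3 was the lowest wild-type pool in 23.

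The level of chamber muscle genes differed widely. Nppa and Nppb, the natriuretic peptide genes of working myocardium, had 1 and 2 counts over all 6 pools, Myl2, the ventricular light chain, had 3, and Bmp10, a growth factor of trabecular muscle, had 5. Others on the same list were clearly read, such as Irx4, a ventricular homeodomain factor, with 195 counts, Smyd1, a muscle methyltransferase gene, with 293, the troponin gene Tnni1 with 162 and Ttn with 2599. Per exon base, Irx4, Smyd1, Tnni1 and Ttn had a mean TPM of 3.995, 3.654, 2.423 and 1.272. Ttn, with 116825 exon bases, was thus the lowest of these despite its counts. Nppa, Nppb, Myl2 and Bmp10 were at 0.0493, 0.159, 0.0892 and 0.068 TPM. These 8 were chosen for this statement after their values were seen. Other listed genes lay between them in counts, such as Myl3 with 47 and Tnni3 with 32, also picked after their values were seen.

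The genes that varied most like the sarcomere sum were in part muscle genes. Among 2498 tested genes outside the 10 members with a mean of at least 1 CPM and enough spread (a standard deviation of log2 CPM of at least 0.3, 50% of that of the sum), 41 (1.64%) had a Pearson correlation of at least 0.9 over the 6 pools. All genes of a pool share its depth and its dissection, so this describes these pools only. Ttn, the giant spring protein of the sarcomere, was the most alike (r = 0.984), followed by Tmem191c (0.973), Mybpc3 (0.970), Tbx20 (0.967), Fbxo41 (0.963), Tox (0.962), Mylk3 (0.962), Acta2 (0.959), Unc45b (0.955) and Abcc10 (0.952). Mybpc3 encodes cardiac myosin-binding protein C, Tbx20 a heart T-box factor, Mylk3 the cardiac myosin light chain kinase and Unc45b a myosin chaperone. Of the listed cardiomyocyte genes 21 entered this comparison, and 4 of them reached 0.9.

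Ttn was read at 88.1, 85.6 and 14.2 CPM in wild-type pools 1 to 3 and at 37.4, 22.2 and 28.4 in the mutant pools. Wild-type pool 3 was the lowest of the 6, and the other wild-type pools were both above every mutant pool. Its log2 fold change was -1.06 with all pools, -1.55 without wild-type pool 3 and -0.67 without wild-type pool 1. Mybpc3 was read at 4.08, 4.10 and 0.172 CPM in wild-type pools 1 to 3 and at 1.72, 1.05 and 1.35 in the mutant pools. Its log2 fold change was -0.91 with all pools, -1.53 without wild-type pool 3 and -0.38 without wild-type pool 1. The same values for Unc45b were -1.05, -1.49 and -0.54. These genes were picked for following a sum that is high in wild-type pools 1 and 2 and low in wild-type pool 3, so their values are a description and no test is given.

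Marker lists of most neighbouring tissues were more even among the wild-type pools than the heart genes. Summed CPM of the 16 genes of pharyngeal and second heart field mesoderm was 286, 301 and 281 in the wild-type pools and 313, 322 and 282 in the mutant pools. Among these 2 rose, 1 fell (Mef2c, as given above) and 11 of 14 tested did not pass, beside 2.65% higher and 3.88% lower of all tested genes. The list's median log2 fold change was 0.202. Lhx2, a LIM homeodomain factor, was at a log2 fold change of 0.30 and Fgf8, a growth factor gene, at 0.12, and neither passed. The 13 endothelial and endocardial genes summed to 395, 390 and 360 against 424, 416 and 417 CPM. There the VEGF receptor gene Kdr rose (0.31, edgeR adjusted p = 0.0356), a call lost without wild-type pool 2 or any 1 mutant pool, and Cdh5 (0.15) and Egfl7 (0.07) were among 12 that did not pass.

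The 12 foregut endoderm genes summed to 182, 151 and 186 CPM in the wild-type pools and to 208, 208 and 215 in the mutant pools. Of 9 tested, Cldn6, a tight junction gene, rose (0.52, edgeR adjusted p = 0.00292), Trh, a hormone precursor gene, fell (-0.64, adjusted p = 0.015; lost without mutant pool 1 or 2), and 7, with Epcam at 0.30, did not pass. The 10 head neural and placode genes summed to 394, 393 and 422 against 428, 435 and 412 CPM; En1, a midbrain factor, fell (-0.79, adjusted p = 0.00196) and Hesx1, an anterior forebrain factor, rose (0.64, adjusted p = 0.0331; lost without wild-type pool 2 or any 1 mutant pool). Of 10 extraembryonic and amnion genes 7 were tested and 6 did not pass, among them the keratin genes Krt8 (0.29) and Krt18 (0.23), which surface ectoderm also expresses. Their sums were 284, 267 and 286 against 299, 340 and 369 CPM. In each of these 5 lists the lowest wild-type pool held at least 81.4% of the highest, against 34.0% for the heart members. The sum of the other cardiomyocyte genes was as even, at 82.4%, with Atp2a2 and Tpm1 taking 386 and 262 of its 963 CPM in wild-type pool 1. Gene by gene, the median ratio of the highest to the lowest wild-type pool was 2.11-fold for the cardiomyocyte list and 1.14-fold to 1.37-fold for these 5 lists. It was 2.06-fold for smooth muscle genes and 2.79-fold for primitive erythroid genes, beside 2.77-fold for the heart members. Of 8 tested erythroid genes 7 reached 2-fold, and the lowest wild-type pool held 39.9% of the highest in that list, so a spread this wide was not particular to heart genes.

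Smooth muscle and blood lists were less even. The 5 smooth muscle genes summed to 60.9, 61.9 and 42.2 CPM in the wild-type pools and to 54.5, 54.5 and 45.4 in the mutant pools. Acta2, an actin gene that the early heart tube also expresses, gave 29.7, 29.9 and 17.6 against 20.4, 20.2 and 20.2 CPM (log2 fold change -0.33, edgeR adjusted p = 0.304). Tagln, an actin-binding protein gene, was even among the wild-type pools, at 19.3, 21.05 and 19.7 against 21.8, 22.7 and 15.2 CPM. Its log2 fold change was 0.01. Without wild-type pool 3, Acta2 had a log2 fold change of -0.56 (edgeR adjusted p = 0.00475), beside 12.7% of all tested genes called there. It was -0.19 without wild-type pool 1 (edgeR adjusted p = 0.607) and -0.21 without wild-type pool 2 (adjusted p = 0.611). Acta2 is also among the genes picked above for following the sarcomere sum, which is low in wild-type pool 3. That choice favours a lower mutant level once this pool is left out, so these values are a description. The 10 primitive erythroid genes summed to 109, 251 and 273 CPM against 172, 82.2 and 177, so wild-type pool 1, the highest in heart genes, was the lowest wild-type pool in blood genes. The embryonic globin genes Hbb-bh1 (51.3, 121 and 126 against 81.9, 39.7 and 83.6 CPM), Hba-x and Hbb-y led this list, and 0 of its 8 tested genes passed (1 at an unadjusted p under 0.05). The part of blood content in the heart gene differences was not tested.

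Markers of the trunk and tail and of skeletal muscle were low. Of 13 trunk and tail genes 5 (Hoxb6, Hoxb9, Hoxc8, Hoxc9 and Msgn1) had 0 counts in every pool, and the list summed to 6.20 to 11.9 CPM, most of it from T, which the notochord also expresses (4.91 to 9.07 CPM). Cdx1 and Tbx6 had 39 and 24 counts in all, and Cdx2, Cdx4 and Hoxa9 had 3 or 4. Hoxa10 and Tbx4 went the other way. Hoxa10, a posterior homeobox gene, had 0, 1 and 1 counts in the wild-type pools and 20, 10 and 6 in the mutant pools, and Tbx4, a hindlimb T-box gene, had 1, 0 and 1 against 13, 13 and 6. The summed counts, mutant over wild type, had a ratio of 18 for Hoxa10 (exact 95% counting interval 4.63 to 154) and 16 for Tbx4 (4.08 to 138). Both were below the filter on low counts, and without that filter both were higher in the mutant pools by edgeR (adjusted p = 4.07e-05 for Hoxa10 and 0.000154 for Tbx4). The genes at 0 and these 2 were named after their values were seen. Among 11 skeletal muscle genes Myog and Mymk had 0 counts, and the list summed to 7.58 to 11.7 CPM, led by Tnnt1 (3.37 to 5.84 CPM), Mylpf and Acta1; none of its 3 tested genes passed (0 at an unadjusted p under 0.05). Acta1, an actin gene shared by skeletal and embryonic heart muscle, was read at 2.13, 1.27 and 0.344 CPM in wild-type pools 1 to 3 and at 1.31, 1.47 and 0.406 in the mutant pools. Mef2c and Hand2 stand on both the cardiomyocyte and the pharyngeal list, and Des on both the cardiomyocyte and the smooth muscle list.

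**Figure D5:**
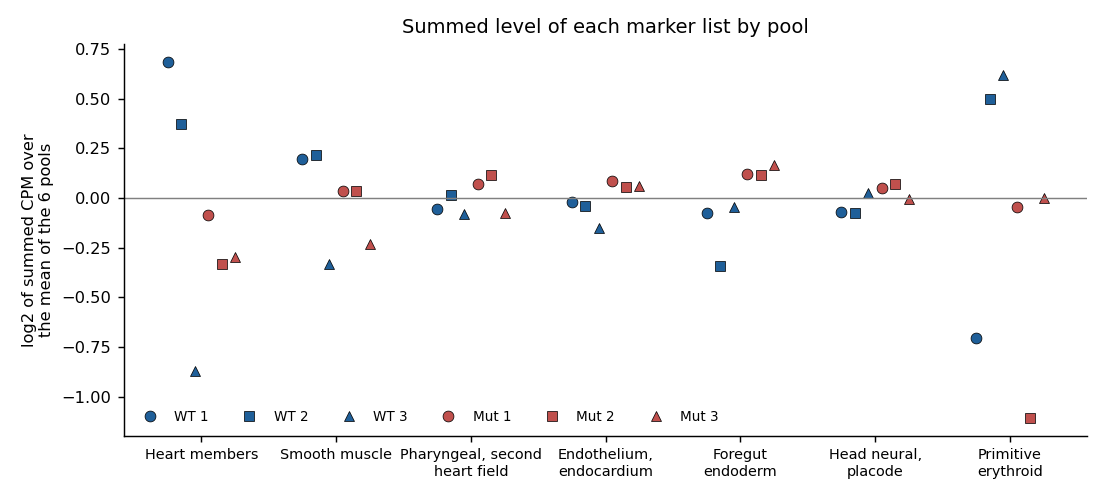
Log2 of the summed CPM of each marker list (horizontal axis) over its mean in the 6 pools; blue symbols are wild-type and red symbols mutant pools, and circles, squares and triangles are pools 1, 2 and 3. Heart members ran from 35.1 CPM in wild-type pool 3 to 103 CPM in wild-type pool 1, and primitive erythroid genes were low in wild-type pool 1 (109 CPM) and mutant pool 2 (82.2 CPM).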

How the data were processed

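For each pool the authors deposited a table of unnormalized whole-number counts by gene ID. The submitters' processing notes name mm10 as the build. An aligner, a counting tool, an annotation and a strand setting are not named in these sources, so opposite-strand genes and close copies can share reads. Per the labels' protocols, total RNA libraries were made with a TruSeq kit. Of 54532 IDs 54495 matched GENCODE M21 (GRCm38), the source of symbols, coordinates and exon lengths.

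Genes were kept with edgeR's filterByExpr (14008), scaled by TMM and tested with edgeR's quasi-likelihood test (robust, two-sided), adjusted over all tested genes by Benjamini-Hochberg, with a threshold of 0.05. CPM values are TMM-normalised; TPM uses union exon length. The standard error is the fold change divided by the square root of F, and 95% intervals use the test's degrees of freedom. Fits ran in edgeR 4.0.16, with DESeq2 1.42.0 and limma 3.58.1 for alternatives, under R 4.3.3, and the procedure was tested on simulated data. Pools of 1 genotype differed by more than counting noise (a chi-square of 2.81 to 9.19 for each degree of freedom).

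The 10 members and the 10 other marker lists were chosen with earlier results of these data known. Named are all members, Sf3b4, the listed genes with the highest mean TPM (8 cardiomyocyte genes, 3 per other list), those past the threshold by smallest p (at most 8 and 3), and the 10 genes most correlated with the sarcomere sum (log2 of CPM + 0.5). Some genes that this rule names are not reported here. Alternatives were DESeq2, limma-voom, other scaling and filters, no robust estimation, a block for replicate number, leaving out each pool, and Y-linked reads as a split or covariate.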

Additional observations from a re-analysis of the deposited data

How the results depend on the processing

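No member passed under any alternative except the comparison without wild-type pool 3 (4 members) and the fit with the replicate block (1 member, Myh7, log2 fold change -0.60, edgeR adjusted p = 0.0217); with 1 pool left out the count ran from 0 to 4. The labels do not say whether equal replicate numbers mean paired pools, and 3 pools per genotype are too few to settle it. Same-numbered pools had correlations of -0.161, 0.0515 and -0.0598 between their deviations, and 0 of 6 pools correlated best with its own number. Over all genes 914 were called, 694 with the replicate block, 230 to 1810 with 1 pool left out, 1616 with Y-linked reads as a covariate and 535 among the 4 pools that have such reads. The cardiomyocyte list had 3 calls, 0 to 7 with 1 pool left out, 1 with DESeq2 and 1 among those 4 pools. All lists besides the members had 11 calls, 3 to 22 with 1 pool left out and 17 with the covariate. The mutant mean of 53.9 counts per 1000000 became 43.6 for the sarcomere genes alone and 46.2 without Actc1, since fewer genes were summed. The cause of the other shifts was not tested. The members at least 2-fold apart among the wild-type pools numbered 7, and 0 to 7 with 1 wild-type pool left out, an alternative added after the data were seen. Tbx5, Hand1 and Gata4 had the fewest counts of the members, at 11, 76 and 111 over 6 pools, against 257 to 1378 for the other 7.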
